A study of Rattus norvegicus with 4 samples.

Results

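The miR-143 and miR-145 cluster gives 4 mature microRNAs (miRNAs), miR-143-3p, miR-143-5p, miR-145-5p and miR-145-3p, and their small RNA reads were followed in rat aortic smooth muscle cells exposed to angiotensin II (Ang II). A deposited sequence with its read count (a tag) was given to an arm if its first 18 nt were those of the rat mature miRNA in RefSeq. These are 4 of the 407 annotated rat miRNAs that had reads here. Levels are reads per 1000000 deposited reads that name a sequence (RPM).

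Ang II is a blood pressure hormone to which the smooth muscle of arteries responds. There were 4 libraries, 1 per group. The 3 Ang II libraries came from cells given 100 nM Ang II for 1 h, 3 h or 24 h, and the control library came from cells given none. All 4 came from Sprague-Dawley cells grown with 10% FBS and then kept without serum for 48 h. The design sets each Ang II time against the control. The labels do not say how many animals or cultures stand behind a library. The control carries no time of its own, so the effect of the hormone cannot be told apart from that of the hours in culture. As each group is 1 library, nothing checks a difference by replicates and no condition was tested, and every interval below is an exact 95% interval for counting error only.

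The miR-143 and miR-145 hairpins lie next to each other and are transcribed together from a long non-coding host RNA, Carmn, in smooth muscle under the control of serum response factor and its partner myocardin. Drosha cuts each hairpin out of the long transcript, and Dicer then removes the loop and leaves a duplex of a 5p and a 3p arm. One strand of the duplex is kept in an Argonaute protein, where bases 2 to 8, the seed, pair with target mRNAs. In vascular smooth muscle the kept strands, miR-143-3p and miR-145-5p, are known for holding the cells in the contractile state, and both are known to fall when the cells turn to growth and migration. Enzymes can also trim the 3′ end of a mature miRNA or add U or A to it, and a shifted cut at the 5′ end moves the seed.

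The 4 mature sequences are shown first because the reads departed from them in different ways (RefSeq, build GRCr8, with the seed in capitals).
miR-143-3p: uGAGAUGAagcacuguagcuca
miR-143-5p: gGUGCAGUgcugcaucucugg
miR-145-5p: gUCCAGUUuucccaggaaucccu
miR-145-3p: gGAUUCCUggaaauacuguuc
No 2 of these seeds are the same, so the arms fall into 4 seed groups of 1 arm each. No other annotated rat miRNA shares the first 18 nt of any of them.

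The hairpins are given because loop reads and shifted starts are read against them below, with both arms in capitals. Both lie on the minus strand of chromosome 18, Mir143 at chr18:57371349-57371453 and Mir145 at chr18:57369983-57370070 (GRCr8). The 1278 nt between them and both hairpins are within the Carmn gene (synonym Mir143hg).
Mir143 hairpin: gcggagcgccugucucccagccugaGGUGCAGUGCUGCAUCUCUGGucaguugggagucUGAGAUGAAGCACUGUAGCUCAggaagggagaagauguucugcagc
Mir145 hairpin: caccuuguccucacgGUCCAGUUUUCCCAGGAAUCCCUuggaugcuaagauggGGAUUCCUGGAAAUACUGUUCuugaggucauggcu

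The libraries held 13119417 to 14534892 reads each, in tags of 16 to 42 nt, and 68.4 to 74.4% of these reads began like an annotated miRNA. The 4 arms together took 25.1% of all reads in the control, 30.6% after 1 h, 31.3% after 3 h and 30.9% after 24 h. The smooth muscle label was checked against miRNAs of other cell types. Blood and immune miRNAs stood at 0.457 to 0.757 RPM in sum, with miR-142-5p, miR-144-3p and miR-223-3p at 0 reads in every library. Epithelial miRNAs summed to 3.55 to 6.40 RPM, both arms of endothelial miR-126a to 105 to 125 RPM and the striated muscle list, nearly all of it miR-1-3p, to 99.8 to 124 RPM. General mesenchymal miRNAs summed to 2014 to 2372 RPM. Only 3 of the 6 epithelial, 5 of the 7 blood and immune and 4 of the 6 neural names listed were found in the reference. Among those not counted were miR-200a-3p, miR-200b-3p, miR-429, miR-150-5p and miR-124-3p, so low sums cover these cell types in part. The sum of the neural list was higher in the Ang II libraries through miR-129-5p alone, at 119.7 RPM in the control, 157.7 after 1 h, 168.3 after 3 h and 136.6 after 24 h, while its other 2 measured miRNAs, miR-9a-5p and miR-128-3p, were lower than the control (log2 ratios from -0.46 to -0.01). Its part in the values below was not tested. Of the contractile miRNAs outside the cluster, miR-133b-3p had 0 reads in every library and miR-133a-3p between 1 and 11.

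**Figure D1:**
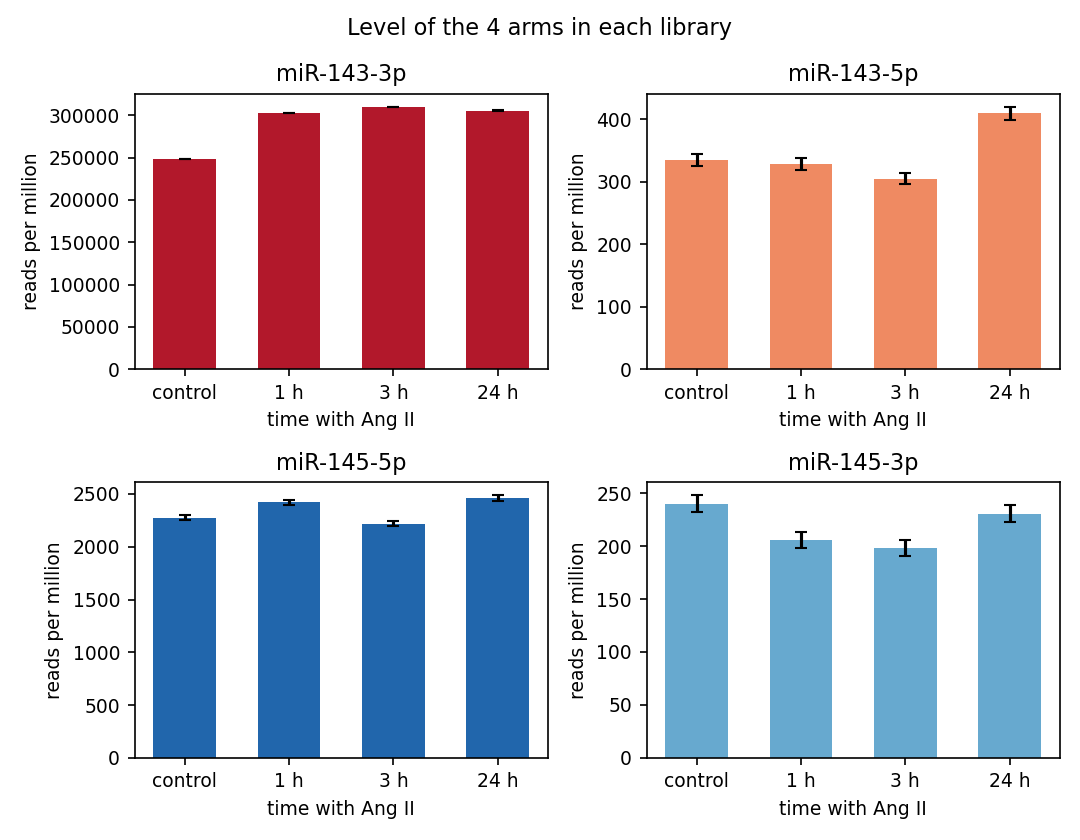
Level of each arm in RPM, with a bar per library and exact 95% intervals for counting error. The miR-143-3p bars lie between 302820 and 309960 in the Ang II libraries, against 248200 in the control, and in no other arm is the control bar the lowest.

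miR-143-3p, the kept strand of miR-143, was the most read miRNA of every library, and it was higher in all 3 Ang II libraries than in the control without passing 1.5-fold. It had 248200 RPM in the control, 302820 after 1 h, 309960 after 3 h and 305530 after 24 h, from 3572929 reads in the control and more in each Ang II library. The Ang II libraries were close to each other, with 3 h at 1.02 times 1 h and 24 h at 0.986 times 3 h. Against the control the ratio was 1.22 after 1 h (1.218 to 1.222), 1.25 after 3 h (1.247 to 1.251) and 1.23 after 24 h (1.229 to 1.233).

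miR-145-5p, the kept strand of miR-145, stayed closer to the control. Its level was 2275 RPM in the control, 2421 after 1 h, 2216 after 3 h and 2464 after 24 h, which placed it between rank 21 and rank 24 of all miRNAs. The ratio over the control was 1.06 after 1 h (1.05 to 1.08), 0.974 after 3 h (0.959 to 0.989) and 1.08 after 24 h (1.07 to 1.10). After 3 h the direction rests on the scaling, with a log2 ratio of -0.04 on deposited reads and 0.02 with TMM factors, which are computed from the bulk of the miRNAs.

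Of the minor arms, miR-143-5p was near the control after 1 h and 3 h and higher after 24 h, again below 1.5-fold. Its level was 335 RPM in the control, 328 after 1 h, 304 after 3 h and 409 after 24 h. The ratio was 0.981 after 1 h (0.941 to 1.02), 0.910 after 3 h (0.873 to 0.948) and 1.22 after 24 h (1.18 to 1.27). The 1 h interval spans 1, so no difference was detectable at that depth, and with TMM factors the log2 ratio turned to 0.07, against -0.03 on deposited reads.

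miR-145-3p lay below the control in all 3 Ang II libraries on this scale, although the scaling decides the direction after 24 h. It had 240.0 RPM in the control, 206 after 1 h, 198 after 3 h and 231 after 24 h. Its ratio was 0.858 after 1 h (0.815 to 0.902), 0.825 after 3 h (0.785 to 0.867) and 0.961 after 24 h (0.916 to 1.01). After 24 h its log2 ratio was -0.06 on deposited reads and 0.21 with TMM factors.

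None of the 4 arms was called higher or lower at any time, where a call needs more than 1.5-fold on log2((RPM + 1)/(RPM + 1)) and 100 reads in the higher library. Among all annotated miRNAs with that depth, 4.6% of 174 were called after 1 h, 7.95% of 176 after 3 h and 21.3% of 178 after 24 h. Higher calls alone were 2.3%, 3.98% and 5.06% at the 3 times, and lower calls 2.3%, 3.98% and 16.3%. By direction, 4 were higher and 4 lower after 1 h, 7 and 7 after 3 h, and 9 and 29 after 24 h. With TMM factors 7 were higher and 3 lower after 1 h, 12 and 7 after 3 h, and 15 and 9 after 24 h, and with annotated miRNA reads as the scale 3 and 9, 5 and 14, and 9 and 44.

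The arms were also set against the median of the miRNAs deep enough for a call, which was lower after 24 h on deposited reads. That fall depends on the scaling, as the 24 h median was 0.009 with TMM factors and -0.32 with annotated miRNA reads as the scale. Annotated miRNAs with the 4 arms included were not lower, at 68.4% of the reads in the control and 71.9% after 24 h. The 4 arms themselves held 25.1% and 30.9% of the reads in these 2 libraries. Without them, miRNA reads were 6237282 of 14395539 in the control and 5969763 of 14534892 after 24 h, which is a lower share. On deposited reads the median log2 ratio was -0.09 after 1 h, -0.05 after 3 h and -0.25 after 24 h. Relative to that median miR-143-3p stood 0.38, 0.37 and 0.55 log2 units higher after 1 h, 3 h and 24 h. For miR-143-5p the same difference was 0.06 after 1 h, -0.09 after 3 h and 0.54 after 24 h. Both arms of miR-143 thus stood further above the median after 24 h than after 1 h. miR-145-5p stood 0.18, 0.01 and 0.36 units above the median at the 3 times. For miR-145-3p the difference was -0.13 after 1 h, -0.23 after 3 h and 0.19 after 24 h. After 24 h all 4 arms were therefore above the median miRNA, and all 4 were below 1.5-fold also with TMM factors (log2 ratios 0.57, 0.56, 0.38 and 0.21 for miR-143-3p, miR-143-5p, miR-145-5p and miR-145-3p).

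**Figure D2:**
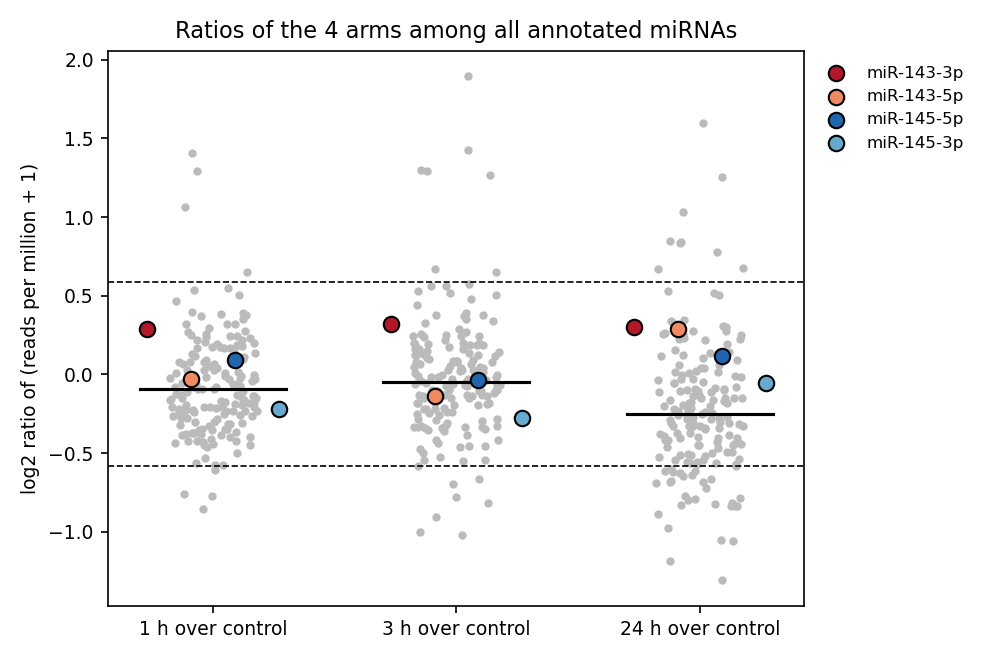
Log2 ratio of each Ang II library over the control for all annotated miRNAs with 100 reads (grey points), with the 4 arms in colour, the median as a black line and 1.5-fold as dashed lines. All 4 arms sit between the dashed lines at every time, and after 24 h all 4 sit above the median of -0.25.

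Within each hairpin the share of the minor arm does not depend on the scaling between libraries. miR-143-5p made up 0.135% of the miR-143 reads in the control (0.131 to 0.138%), 0.108% after 1 h (0.105 to 0.112%), 0.0981% after 3 h (0.0952 to 0.101%) and 0.134% after 24 h (0.130 to 0.137%). The 1 h and 3 h shares were lower than the control share beyond counting error, and the 24 h share was not. miR-145-3p made up 9.54% of the miR-145 reads in the control (9.24 to 9.85%), 7.84% after 1 h (7.56 to 8.13%), 8.20% after 3 h (7.92 to 8.50%) and 8.56% after 24 h (8.28 to 8.84%). Here all 3 Ang II libraries were lower than the control, by less than 2 percentage points. This share counts the annotated start only. With shifted starts added, as given below, the 24 h share was close to that of the control. Of 79 hairpins with both arms annotated and 1000 reads, the median minor share was 0.323% in the control, and miR-145 ranked 74 and miR-143 ranked 33 from the lowest.

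Both hairpins come from 1 transcript, yet their kept strands were read at very unequal levels. There were 109 reads of miR-143-3p for each read of miR-145-5p in the control (108 to 110), 125 after 1 h (124 to 126), 139.9 after 3 h (138 to 141) and 124 after 24 h (123 to 125). The ratio of the minor arms, miR-143-5p to miR-145-3p, was 1.39 in the control, 1.59 after 1 h, 1.54 after 3 h and 1.78 after 24 h. Both ratios were higher in every Ang II library than in the control. The ratio of the minor arms counts reads from the annotated start only, which held 41.7% of the miR-145 3p reads in the control and 99.7% of miR-143-5p. With all starts up to 3 nt away, miR-143-5p had 4830 reads and the miR-145 3p arm 8292 in the control. After 24 h they had 5977 and 8927. That the ratio lies above 1 therefore rests on the start rule. Ligation and amplification favour some small RNA ends over others, so a ratio between 2 different arms within a library is one of reads and not of molecules.

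The reads of miR-143-3p rarely ended where the reference ends. The annotated 22-nt sequence accounted for 2.69% in the control, 2.83% after 1 h, 2.71% after 3 h and 2.96% after 24 h, in the control rank 69 from the top of 75 miRNAs with 1000 reads in every library. The most read tags of the arm are given here with the bases that the hairpin does not hold in capitals (T stands for U).
miR-143-3p, 2 nt shorter: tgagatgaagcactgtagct
miR-143-3p, added T: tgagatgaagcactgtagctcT
miR-143-3p, as annotated: tgagatgaagcactgtagctca
miR-143-3p, added TT: tgagatgaagcactgtagctcTT
miR-143-3p, added TA: tgagatgaagcactgtagctcTA
The 20-nt form held 58.4% of the reads in the control, 57.0% after 1 h, 58.4% after 3 h and 57.7% after 24 h. The form with an added T held 24.9% in the control, 25.9% after 1 h, 24.9% after 3 h and 26.3% after 24 h. The added TT and TA forms held 2.39 to 2.56% and 2.21 to 2.34%.

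Of the reads that reach base 22 after the first 21 hairpin bases, T stood there in 89.5% in the control, 89.4% after 1 h, 89.5% after 3 h and 89.1% after 24 h. The A of the hairpin stood there in 9.39 to 9.76%. Where the T was followed by 2 more bases, these were the hairpin's GG in only 19 of 92474 control reads, 30 of 108852 after 1 h, 20 of 119760 after 3 h and 28 of 87705 after 24 h. Reads with the hairpin's own A at base 22 also went on to GG in few cases, 0.323 to 0.624% of those with 2 more bases, so the missing GG alone does not set the T reads apart. The 3′ adapter begins with A, and tails of at least 3 nt that begin like it were found in 0.0265% of the control reads of the arm. Shorter adapter remnants were not counted.

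Tails made of T alone were frequent on miR-143-3p, at 28.3% of its reads in the control, against a median of 1.81% over the 75 miRNAs. Higher shares in the control were found for 4 miRNAs, named after their values were seen, miR-125b-1-3p (42.6%), miR-23b-3p (35.6%), miR-148b-3p (34.5%) and miR-24-3p (32.0%). Forms with any added base held 35.1% of miR-143-3p reads in the control, 36.5% after 1 h, 35.3% after 3 h and 35.8% after 24 h. The changes from the control, 1.39, 0.23 and 0.69 percentage points after 1 h, 3 h and 24 h, were all under the limit of 5 points. At that limit 0% of the 75 miRNAs had changed in added bases after 1 h, 2.67% after 3 h and 10.7% after 24 h.

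The share of reads with the added T after base 21 also differed by where the read began. Reads that start 1 nt after the annotated start, with 30278 to 36053 reads per library, carried the T in 38.9 to 41.2% of cases. Reads from the annotated start carried it in 24.9 to 26.3%, and reads that start 1 nt before it in 17.98 to 19.0%. The order was the same in all 4 libraries and the intervals did not overlap. These shares are over all reads of a start, including those that end before base 21. Reads that end at base 21 without the T were few at each start. In the control they made up 0.708% from 1 nt after the annotated start, 1.37% from it and 1.32% from 1 nt before it. The shares therefore do not separate adding a T from how many reads reach base 21.

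miR-145-5p differed in this, with the annotated 23-nt sequence as its main form.
miR-145-5p, as annotated: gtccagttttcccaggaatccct
miR-145-5p, 1 nt shorter: gtccagttttcccaggaatccc
The first of these held 65.0% of the reads in the control, 64.9% after 1 h, 63.9% after 3 h and 68.8% after 24 h, and the second 15.1 to 16.9%. Reads with added bases made up 8.22% in the control (7.93 to 8.53%), 8.20% after 1 h (7.90 to 8.51%), 8.68% after 3 h (8.37 to 8.99%) and 6.005% after 24 h (5.76 to 6.26%). The 24 h share was 2.22 points lower than the control share, below the limit of 5 points. Over the 75 miRNAs the median change after 24 h was -1.06 points, and 63 of 75 lay below their control share. The share of the annotated sequence differed from the control by less than 5 points in all 4 arms at every time. For miR-143-3p and miR-145-3p it was only 2.69% and 2.34% in the control, so a fall of 5 points was not possible there. Of the 75 miRNAs, 2.67% passed that limit after 1 h, 4% after 3 h and 6.67% after 24 h.

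**Figure D3:**
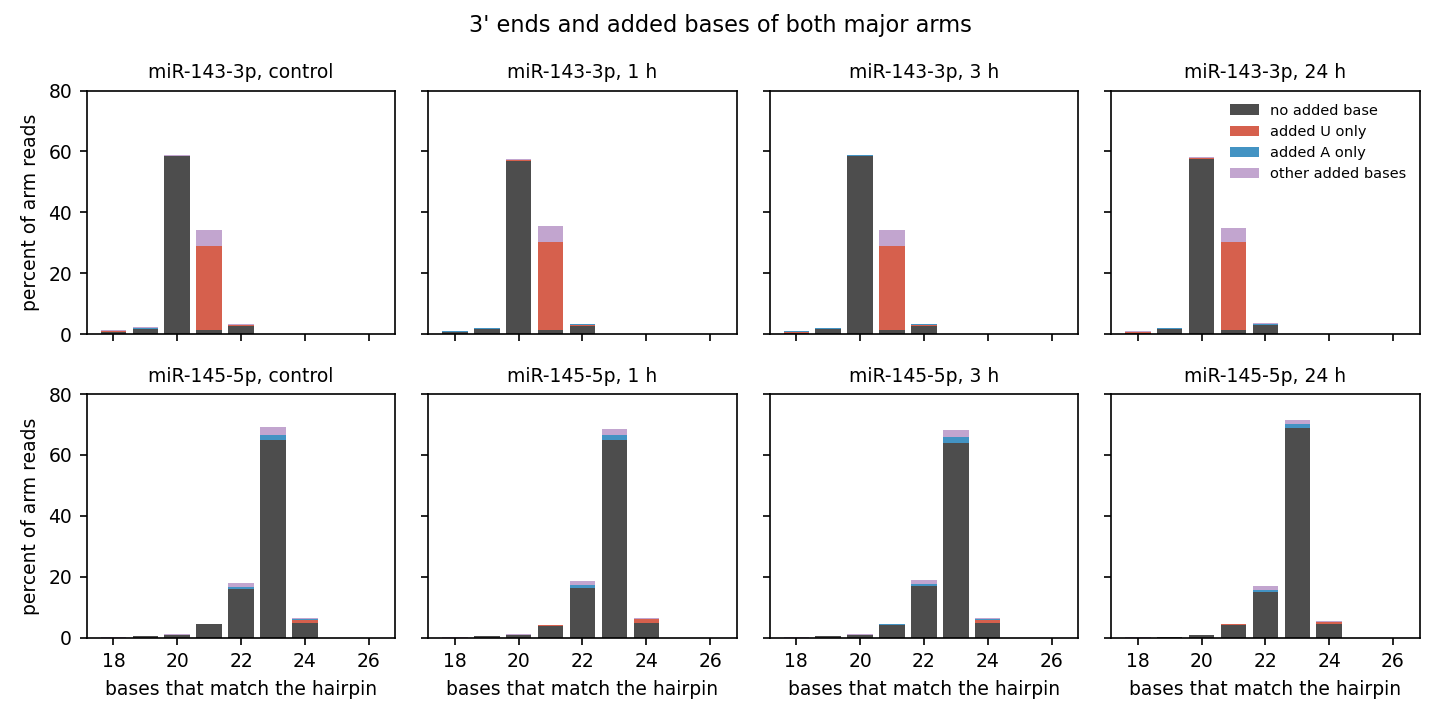
Share of the reads of miR-143-3p (top) and miR-145-5p (bottom) by the number of bases that match the hairpin, with 1 panel per library and the added bases in colour. For miR-143-3p the bar at 20 bases has almost no added base and the bar at 21 bases is mostly added U, while miR-145-5p peaks at its annotated 23 bases in all 4 libraries.

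miR-145-3p had a main form 1 nt longer than the reference, along the hairpin.
miR-145-3p, 1 nt longer: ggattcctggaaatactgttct
It held 92.6% of the reads in the control, 92.6% after 1 h, 92.9% after 3 h and 92.4% after 24 h, and the annotated 21-nt sequence held 2.18 to 2.42%. With 95.6% of its control reads longer than the reference the arm ranked 1 of 75.

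miR-143-5p kept to its annotated sequence in 71.5% of reads in the control, 72.7% after 1 h, 73.5% after 3 h and 70.3% after 24 h. Long tags held a large part of the rest, and the second most read tag of the arm was 34 nt long.
miR-143-5p, joined to the loop: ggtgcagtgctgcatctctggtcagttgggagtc
These 34 bases run from the first base of the 5p arm (hairpin base 26) through the whole loop and stop 1 base before miR-143-3p begins (hairpin base 60). The tag therefore holds the 5p arm with the loop still attached, and its end adjoins the start of the 3p arm.

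Among the 5 most read tags of each arm, the loop-joined one after 24 h was the one called by the rule with 1 RPM added and 100 reads (log2 ratio 0.64). A tag of miR-143-5p with 1 added A had a plain ratio of 1.54 after 3 h from 149 reads, but a log2 ratio of 0.56 with the 1 RPM, and a miR-145-3p tag with plain ratios of 1.503 after 3 h and 1.98 after 24 h had at most 12 reads. In the lower direction, a 23-nt miR-145-3p tag with 105 control reads had a plain ratio of 0.658 after 3 h. Its log2 ratio with the 1 RPM was -0.52, so it was not called. The 34-nt tag had 557 reads in the control, 436 after 1 h, 437 after 3 h and 887 after 24 h, or 38.7, 33.2, 30.4 and 61.0 RPM in that order of time. The ratio over the control was 0.859 after 1 h (0.756 to 0.975), 0.786 after 3 h (0.692 to 0.892) and 1.58 after 24 h (1.42 to 1.76). Of 4939 single tags with 100 reads in the higher library after 24 h, 13.2% were called higher by the same rule, against 4.79% after 1 h and 5.67% after 3 h, so the call is not rare among tags after 24 h.

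All tags of 33 to 35 nt that match the hairpin from the 5p start gave 41.1 RPM in the control, 36.4 after 1 h, 32.4 after 3 h and 65.3 after 24 h. This class stood at 0.886 times the control after 1 h (0.784 to 1.00), 0.787 after 3 h (0.695 to 0.890) and 1.59 after 24 h (1.43 to 1.76). The 24 h value was no longer past 1.5-fold with a pseudocount of 10 RPM (log2 ratio 0.56). miR-143-5p tags under 30 nt had 284 RPM in the control, 284 after 1 h, 265 after 3 h and 333 after 24 h, with ratios of 0.998, 0.931 and 1.17 (1.12 to 1.22 after 24 h).

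The joined class made up 12.3% of miR-143-5p reads in the control (11.4 to 13.2%), 11.1% after 1 h (10.2 to 12.1%), 10.6% after 3 h (9.73 to 11.6%) and 15.96% after 24 h (15.03 to 16.9%). The 24 h share lay above the other 3 beyond counting error, and this share does not depend on the scaling. All tags of 30 nt or more held 15.1% in the control, 13.6% after 1 h, 13.1% after 3 h and 18.6% after 24 h. That change of 3.57 points after 24 h stayed under the limit of 5 points, which 1.33% of the 75 miRNAs passed. In the control miR-143-5p ranked 2 of 75 for its share of long tags, where the median was 0.0492%. With so few long tags in most of the 75, that percentage does not tell how unusual the change is.

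**Figure D4:**
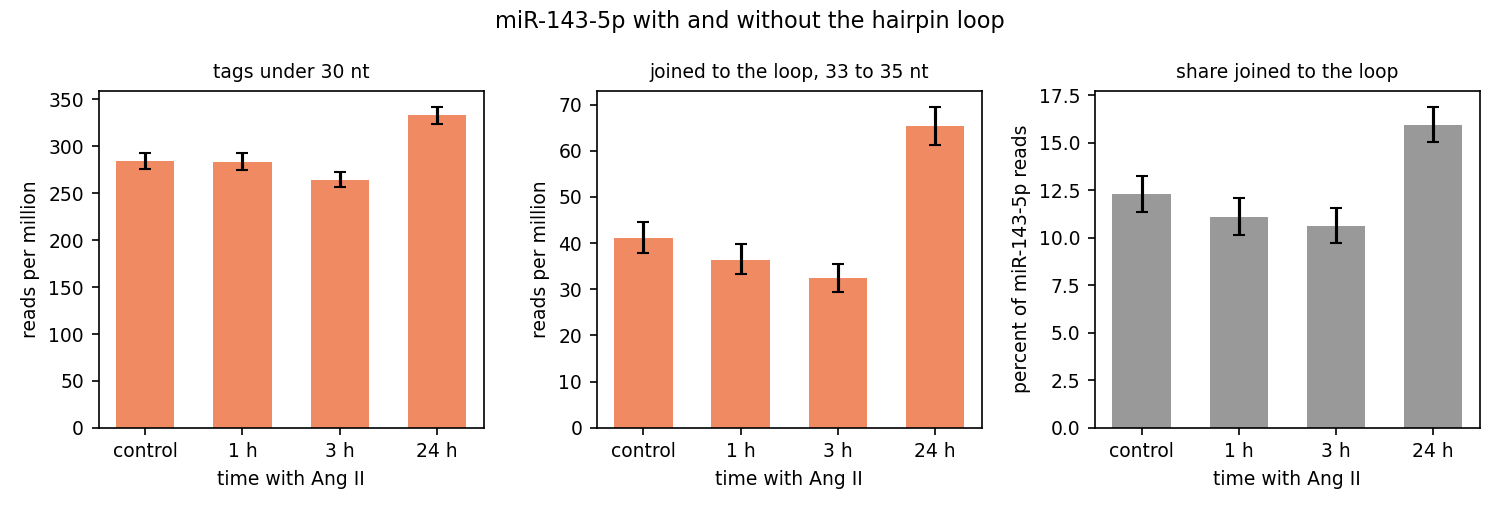
miR-143-5p tags under 30 nt (left) and joined to the loop (middle) in RPM, and the joined share of all miR-143-5p reads in percent (right), with a bar per library and exact 95% intervals for counting error. The 24 h bar of the joined form stands at 65.3 RPM, against 32.4 to 41.1 in the other libraries.

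Few other hairpins gave such reads. In 219 hairpins with both arms annotated and a joined form of at most 41 nt, 16 had any joined read and 2 had 100 or more, Mir143 and Mir31. Mir31 was named after its values were seen, and its joined reads numbered 720 in the control, 2234 after 1 h, 1856 after 3 h and 352 after 24 h. For Mir145 the joined form would be 38 nt long, within the longest tag of 42 nt, and it had 0 reads in every library, which allows up to 0.206 to 0.229 RPM (3 reads per library). Of the other 3 arms only miR-145-5p could give such a tag, since tags of a 3p arm start after the loop. miR-143-3p had 691 to 1012 reads in tags of 30 nt or more per library, miR-145-5p had 44 to 79 and miR-145-3p had 0 or 1, and 0 of these lay wholly within the hairpin.

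The loop of miR-145 was read as a piece of its own. Tags in the loop region had 372 reads in the control, 354 after 1 h, 392 after 3 h and 347 after 24 h. Of these 1465 reads, 1400 were 1 sequence of 19 nt that covers hairpin bases 37 to 55.
miR-145 loop tag: cttggatgctaagatgggg
Its first 2 bases are the last 2 of the annotated miR-145-5p, and its last 2 are the first 2 of the annotated miR-145-3p. The loop tags stood at 1.04 times the control after 1 h (0.900 to 1.21), 1.06 after 3 h (0.914 to 1.22) and 0.924 after 24 h (0.796 to 1.07), so no difference was detectable at this depth. Of 258 hairpins searched, 44 had loop reads, 5 had 100 or more, and Mir145 had the most. The loop of miR-143 (13 nt), searched in the same way from 3 nt inside to 3 nt beyond either end, had 1 read after 24 h and 0 in the other libraries. No tag is shorter than 16 nt, so a bare loop of 13 nt could not be read, only a piece that also holds bases of the arms. The low count therefore does not show that this loop was absent, and hairpins with loops of different length are not counted alike.

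Tags that start inside the annotated arm are outside the 18-nt match, and for the miR-145 3p arm they were the larger part. The capitals mark the seed of each start.
miR-145 3p arm, annotated start: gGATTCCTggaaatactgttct
miR-145 3p arm, 1 nt further in: gATTCCTGgaaatactgttct
miR-145 3p arm, 2 nt further in: aTTCCTGGaaatactgttcta
The last of these ends in 1 A that the hairpin does not hold. The seed of the start 2 nt further in belongs to 0 annotated rat mature miRNAs, and its first 18 nt were found in 0 other annotated hairpins.

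Reads that start 2 nt further in had 272 RPM in the control, 221 after 1 h, 230 after 3 h and 318 after 24 h. They made up 47.3% of the arm's reads in the control (46.2 to 48.4%), 46.2% after 1 h (44.9 to 47.4%), 48.5% after 3 h (47.3 to 49.7%) and 51.8% after 24 h (50.8 to 52.9%). Over the same libraries the annotated start held 41.7%, 43.0%, 41.8% and 37.5%, and the start 1 nt further in 9.27 to 10.7%. The reads with the shifted start were thus more numerous than those with the annotated start in all 4 libraries, and after 24 h their share was above the control share beyond counting error.

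Against the control, reads that start 2 nt further in stood at 0.812 after 1 h (0.774 to 0.852), 0.844 after 3 h (0.806 to 0.884) and 1.17 after 24 h (1.12 to 1.22). None of these passed 1.5-fold. After 24 h they were above the control while miR-145-3p from the annotated start was at 0.961. With starts up to 2 nt away added, the 3p arm made up 20.1% of all miR-145 reads in the control, 16.4% after 1 h, 17.5% after 3 h and 19.9% after 24 h, again lowest after 1 h and 3 h.

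Among 76 miRNAs the miR-145 3p arm ranked 1 for reads from other starts in the control, where the median was 3.06%. The other 3 arms kept to their annotated start. It held 96.2 to 96.9% of miR-143-3p reads and at least 99.5% of miR-143-5p and 99.1% of miR-145-5p reads in every library.

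The 2 starts of the miR-145 3p arm also differed at the other end. An A added after base 22 was found on the start 2 nt further in with 41.6% of reads in the control, 41.5% after 1 h, 41.2% after 3 h and 41.2% after 24 h. In reads that start 1 nt further in it was found in 27.1 to 30.9%. From the annotated start it was found in 0.174% in the control (6 reads), 0.259% after 1 h (7 reads), 0.316% after 3 h (9 reads) and 0.358% after 24 h (12 reads). The added A thus went with the shifted starts in all 4 libraries, with no overlap of the intervals, and within each start the intervals of the 4 libraries overlapped. The 3′ adapter also begins with A, so 1 adapter base left by trimming would look the same, which was not tested.

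**Figure D5:**
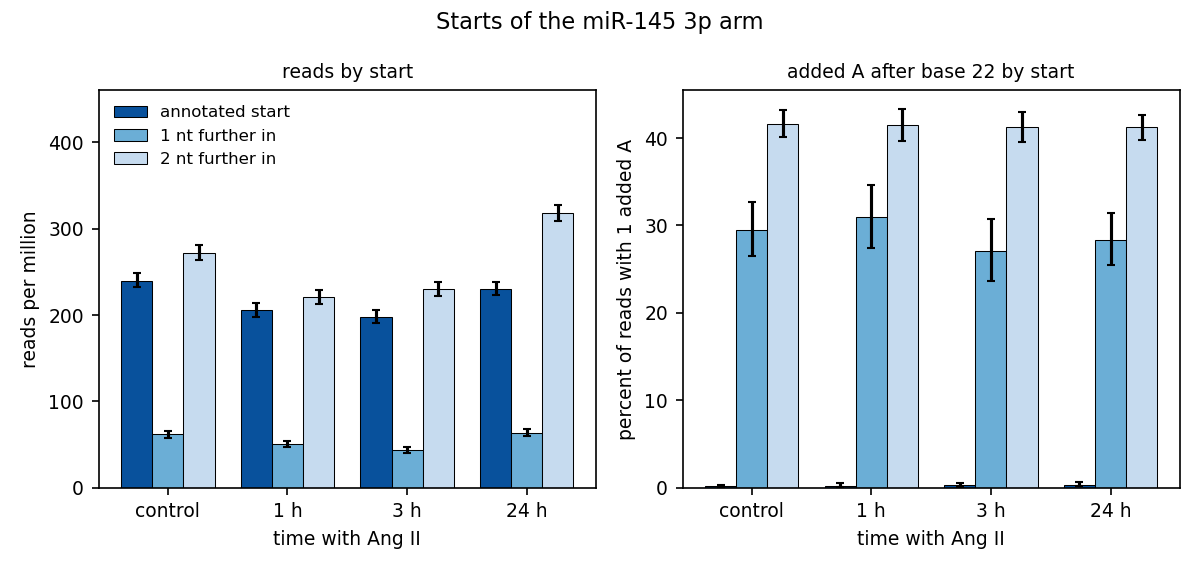
Reads of the miR-145 3p arm by start in RPM (left) and the share of each start's reads that carry 1 added A after base 22 (right), with exact 95% intervals for counting error. The start 2 nt further in is the highest bar of every library, and its share with an added A is 41.2 to 41.6%, against at most 0.358% for the annotated start.

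The cluster was also set beside other miRNAs of smooth muscle. Of the contractile list, with 6 measured members that include the 4 arms, 0 were called at any time, and its median log2 ratio was 0.03 after 1 h, -0.09 after 3 h and 0.03 after 24 h, beside -0.09, -0.05 and -0.25 over all miRNAs with 100 reads. The other 2 measured members were miR-1-3p, a muscle miRNA, with 1718 reads in the control, 1401 after 1 h, 1401 after 3 h and 1406 after 24 h, and miR-204-5p with 234 to 356 reads. The list of miRNAs of the synthetic, dividing state had 9 measured members. Called higher were 2 of the 8 with 100 reads after 1 h, 3 of 9 after 3 h and 1 of 8 after 24 h, where 2.3%, 3.98% and 5.06% of all miRNAs were, and 0 were called lower. The median log2 ratio was 0.23, 0.19 and 0.23, beside the -0.09, -0.05 and -0.25 over all miRNAs. The calls were miR-21-3p at all 3 times, miR-221-5p after 1 h and 3 h, and miR-222-5p after 3 h. All 3 are minor arms of hairpins whose other arm is well read in these cells. Those other arms were not called, and 2 lay below the control after 1 h and 3 h. In order of time the log2 ratios were -0.20, -0.10 and 0.23 for miR-221-3p and -0.26, -0.14 and 0.13 for miR-222-3p. For miR-21-5p they were 0.05, 0.24 and 0.33. The remaining members also went both ways, with miR-146a-5p at 0.18, -0.22 and 0.23, miR-26a-5p at 0.23, 0.19 and -0.02, and miR-24-3p at 0.24, 0.09 and -0.05. The list also named miR-31-5p, which the reference does not hold under that name, so it is missing from these counts and medians. The reference holds miR-31a-5p, with 8299 reads in the control and log2 ratios of 0.39, 0.29 and -0.26.

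The time courses most like each arm were taken from 84 other miRNAs with 1000 reads in every library, by the largest difference of the log2 ratio at any of the 3 times. Closest to miR-143-3p was miR-3068-5p (0.05), before miR-27a-3p (0.16) and miR-30e-5p (0.18). For miR-143-5p they were miR-23a-3p (0.11), miR-140-3p (0.17) and miR-221-3p (0.17). miR-145-5p was nearest to miR-155-5p (0.10), miR-125b-1-3p (0.12) and miR-24-2-5p (0.12). miR-145-3p was nearest to miR-22-3p (0.04), miR-23b-3p (0.08) and miR-125b-5p (0.09). The 3 ratios of every miRNA share the control library, and the 4 arms themselves were not among the 84.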

How the data were processed

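Small RNAs were ligated to adapters, amplified for 12 cycles, selected at 17 to 52 nt and read on a Genome Analyzer IIx, as the labels' protocols say. The deposited files hold the authors' raw read counts of each distinct sequence, with no normalization. Novoalign and the build rn4 are named in the submitters' processing notes, with no role. Adapter trimming and the filters are not given in the sources used here. An entry that names no sequence held 5.13 to 7.07% of the reads of a file and was left out of all totals.

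Samples were grouped by their source labels. Tags were matched by their first 18 nt to 693 mature and 419 hairpin miRNA sequences of RefSeq (GRCr8); ties went to the longest common start and were otherwise shared equally. The 3′ end of a tag was placed where it last matched the hairpin, and the bases after that were counted as added. Long tags are those of 30 nt or more. A loop-joined tag matched the hairpin from the 5p start to within 1 nt of the 3p start. Depth was 13119417 to 14534892 reads, so 3 reads correspond to 0.206 to 0.229 RPM, the limit that a count of 0 allows. Intervals at 95% are exact, Poisson for levels, Clopper-Pearson for shares and conditional binomial for ratios. Reads copied by PCR are not independent, so these intervals hold counting error and nothing else. Calls used a pseudocount of 1 RPM, 1.5-fold and 100 reads. Shares used a limit of 5 percentage points.

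The members and lists were chosen with earlier results of these data known. The text names the 4 arms, the 5 most read tags of each, 3 miRNAs nearest in time course and list members. Matching, tails and calls were tested on simulated data. Other scalings (TMM factors from edgeR 4.0.16 in R 4.3.3), matches and limits were tried. Scripts ran in Python 3.11.15 with scipy 1.17.1, pandas 2.3.3, numpy 2.4.6 and matplotlib 3.10.9.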

Additional observations from a re-analysis of the deposited data

Results flagged for a closer look

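Reads of the miR-145 3p arm that start 2 nt further in lie outside the 18-nt match that defines the 4 arms. They stood at 318 RPM after 24 h, above the 272 RPM of the control, in 1 library each. Their share of the arm's reads, 51.8% after 24 h and 47.3% in the control, does not depend on the scaling. The cause was not tested.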

How the results depend on the processing

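No paired analysis was possible because each group has 1 library, and for the same reason no replicate was left out. Of 418 recomputed values, 323 kept their direction and side of the limit or, for other kinds of value, their size. A log2 ratio could thus count as kept with a much smaller size. That of miR-143-3p after 3 h went from 0.32 to 0.034 with the 1 h library as reference. Every setting left all 4 arms under 1.5-fold at every time, exact mature sequences included.

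Directions near 0 turned with the scaling. The log2 ratio of miR-143-5p after 1 h became 0.066 with TMM factors, 0.073 with median-of-ratios factors and 0.010 with miRNA reads without the 4 arms. That of miR-145-5p after 3 h became 0.024 with TMM factors. That of miR-145-3p after 24 h became 0.21 with TMM factors, 0.19 with median-of-ratios factors, 0.019 with miRNA reads without the 4 arms, 0.093 with shifted starts added and 0.16 over the 1 h library. miR-145 loop tags came to -0.026 after 1 h and -0.042 after 3 h with annotated miRNA reads, and after 24 h to 0.15 with TMM and 0.13 with median-of-ratios factors. The loop-joined miR-143-5p form after 24 h was 0.56 with a pseudocount of 10 RPM, below 1.5-fold.

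Counts of miRNAs past the limit moved too. After 1 h, 7 were higher with TMM factors, 7 with median-of-ratios factors, 8 with a minimum of 20 reads and 13 with none; 9 were lower with annotated miRNA reads, 1 with a pseudocount of 10 RPM and 0 at 2-fold. After 3 h, 12 were higher with TMM factors, 13 with a minimum of 20 reads, 13 with none and 2 over the 1 h library. Lower after 3 h were 14 with annotated miRNA reads, 11 with a minimum of 20 reads, 12 with none, 2 at 2-fold, 4 with a pseudocount of 10 RPM and 0 over the 1 h library. After 24 h, 15 were higher with TMM factors and 3 at 2-fold. Lower after 24 h were 44 with annotated miRNA reads, 9 with TMM and 12 with median-of-ratios factors, 4 at 2-fold, 13 with a pseudocount of 10 RPM and 14 over the 1 h library.

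Counting the annotated sequence alone changes the arms' proportions, since it drops most miR-143-3p and miR-145-3p reads. The miR-143-5p share became 3.46% in the control, 2.71% after 1 h, 2.60% after 3 h and 3.08% after 24 h, and the miR-145-3p share 0.379%, 0.286%, 0.338% and 0.311%. The ratio of miR-143-3p to miR-145-5p became 4.51 in the control, 5.46 after 1 h, 5.92 after 3 h and 5.34 after 24 h. With shifted starts this ratio was 111 in the control, 127 after 1 h, 142 after 3 h and 126 after 24 h, and the miR-145-3p share 20.1%, 16.4%, 17.5% and 19.9%. Without tags of 30 nt or more the miR-143-5p share was 0.114% in the control, 0.0936% after 1 h, 0.0853% after 3 h and 0.109% after 24 h. The change in its annotated form then turned to -0.041 points after 1 h and 2.18 points after 24 h. With 1 mismatch allowed, the change in added bases turned to 0.31 points for miR-143-5p after 3 h and 0.065 points for miR-145-5p after 1 h. From 36 nt on, past the joined length, miR-143-5p long tags held 0.208% in the control, 0.302% after 1 h, 0.274% after 3 h and 0.235% after 24 h. Settings for the loop-joined form, the loop tags and reads that start 2 nt further in, and the minor arm share with shifted starts, were chosen after seeing the data. Causes beyond these constructions were not tested.

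All values rest on 1 library per group, and depth limits only counting error. Tags are cut at 42 nt. No genome was searched, so another locus with the same first bases cannot be told apart. Trimming can shift 3′ ends, and it was not tested.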
